A study of Homo sapiens with 4 samples.

Results

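The CHD and ISWI genes encode ATP-driven motors that slide, space or evict nucleosomes. Their transcripts were examined in BE(2)C cells, an established human neuroblastoma line that carries MYCN amplification, after knockdown of MYCN. Of the 26364 genes listed in each sample, 10 were taken by their symbols: CHD1 to CHD8, SMARCA1 and SMARCA5. RNA was sequenced from 4 samples, 2 of Ctrl and 2 of MYCN KD. Both groups are the same cell line grown and transfected with a cationic lipid reagent in the same way, for 6 h according to the sample labels, and RNA was taken on the next day. Ctrl cells received a non-targeting siRNA and MYCN KD cells a single siRNA against MYCN. The labels give 80 nM of siRNA, and the text of the study's methods gives another final concentration. The methods of the study speak of biological replicates for the RNA-seq, and neither they nor the labels say what separated the samples of a group, such as a culture or a day. The p-values measure the spread between these samples, which may be in part technical. The values are RPKM (reads scaled by gene length and by sequencing depth), calculated by the authors from read counts after removal of unwanted variation.

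The CHD proteins share paired chromodomains ahead of an ATPase motor. CHD1 and CHD2 act on transcribed genes and load or space nucleosomes there. CHD3, CHD4 and CHD5 are alternative motors of NuRD, a complex that joins nucleosome remodeling to the removal of acetyl groups from histones. CHD6, CHD7 and CHD8 form a further subfamily together with CHD9. In it, CHD7 is known for its role in the neural crest, the embryonic source of the sympathetic nervous system and of neuroblastoma, and CHD8 for its link to autism. The ISWI motors SMARCA5 and SMARCA1 space nucleosomes evenly, in complexes with large partner subunits.

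MYC proteins bind DNA at the E-box, for which CACGTG (its own reverse complement) is the canonical form. These letters were searched on GRCh37, the build of the deposited files, within 1000 bases on each side of the start site of each gene's canonical GENCODE transcript. They occurred near 3 of the 10 genes (30.0%), against 33.3% of the 10216 tested genes with a start site. The share was 47.5% of the genes that were lower in MYCN KD and 25.2% of those that were higher. The stretches that hold them are shown with 12 bases on each side, 5′ to 3′ on the strand of the gene and with the letters in capitals, because they are the places where a MYC protein could be looked for.
CHD4 (chr12:6716162-6716191, minus strand, intron, 366 bases after the start site): tgccccccgggaCACGTGgcccggccccct
CHD1 (chr5:98263893-98263922, minus strand, intron, 801 bases after the start site): ccgggctcccagCACGTGgggagcggcggg
CHD5 (chr1:6240948-6240977, minus strand, 584 bases upstream of the start site): tttggaagggggCACGTGggcggtgggagc
The letters were not in the searched window of CHD2, CHD3, CHD6, CHD7, CHD8, SMARCA1 or SMARCA5. In RefSeq's promoter windows on GRCh38.p14, which run from 250 bases before to 50 bases after a start, 7 of the 10 genes were examined. CHD5, CHD6 and CHD7 were not examined there. Of the 7 genes, 0 held the letters in the window taken for the gene. Of all 35116 windows, which belong to 27305 genes, 7.26% held them. That share counts windows and not genes, so it is not a like-for-like background for the 7 genes. A match is a description of letters and not a binding site.

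The total behind each sample, recovered from the steps of the RPKM values, lay between 29055819 and 34142988 reads. Reads here are counts after the normalization by the authors. MYCN itself, the targeted gene, measured 1068 and 1073 RPKM in the Ctrl samples against 720.2 and 718.0 RPKM after MYCN knockdown, which limma called lower (log2 fold change -0.57 with a standard error of 0.029, Benjamini-Hochberg adjusted p = 0.00361). Over the tested genes, what set Ctrl replicate 1 apart from Ctrl replicate 2 went the opposite way between the MYCN KD samples. The correlation was -0.9845 across genes, which are not independent replicates. The deviations in the 2 groups thus nearly mirrored each other, while limma counted them as independent (2 residual degrees of freedom). The p-values and calls from limma carry that limit. The 9 noradrenergic neuroblastoma markers were all present, with a summed level of 1629 to 1776 RPKM in Ctrl and 2436 to 2662 RPKM in MYCN KD, of which 4 were called higher and 2 lower. The 4 leukocyte markers summed to at most 0.0774 RPKM and the 4 epithelial markers to at most 2.04 RPKM. The 6 mesenchymal-type markers had a summed level of 158.5 to 163.8 RPKM in Ctrl and 231.6 to 239.2 RPKM in MYCN KD. Most of that sum was VIM, which encodes vimentin, with 154.0 to 159.4 RPKM in Ctrl and 227.2 to 235.0 RPKM in MYCN KD. PRRX1 was at 0, and 2 of the 6 could be tested. VIM was called higher, while SNAI2 went the other way, from 3.76 and 3.78 RPKM in Ctrl to 3.41 and 3.40 RPKM in MYCN KD. SNAI2 was not called (log2 fold change -0.12, adjusted p = 0.0816 from limma). The part that these shifts of the markers play in the results was not tested. In bulk RNA, fewer cells of a type and less RNA per cell cannot be told apart.

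The 10 genes spanned a wide range of levels, from CHD4, far above the rest, to CHD5, which was almost silent. In Ctrl the mean level in RPKM, which is per length and so allows genes to be compared, was 119.4 for CHD4, 22.9 for CHD3, 22.9 for CHD8, 14.3 for SMARCA5, 10.8 for CHD7, 8.79 for CHD2, 8.62 for SMARCA1, 7.82 for CHD1, 6.34 for CHD6 and 0.0517 for CHD5. CHD3 and CHD8 were not separated beyond their spread, and neither were CHD2, SMARCA1 and CHD1 as neighbours in this order. In MYCN KD, SMARCA1 moved up from rank 7 to rank 5 and its samples overlapped those of SMARCA5. CHD7 moved down from rank 5 to rank 7, where its samples overlapped those of CHD1. CHD4 alone held from 51.8% to 54.8% of the RPKM summed over the 10 genes in each sample.

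**Figure D1:**
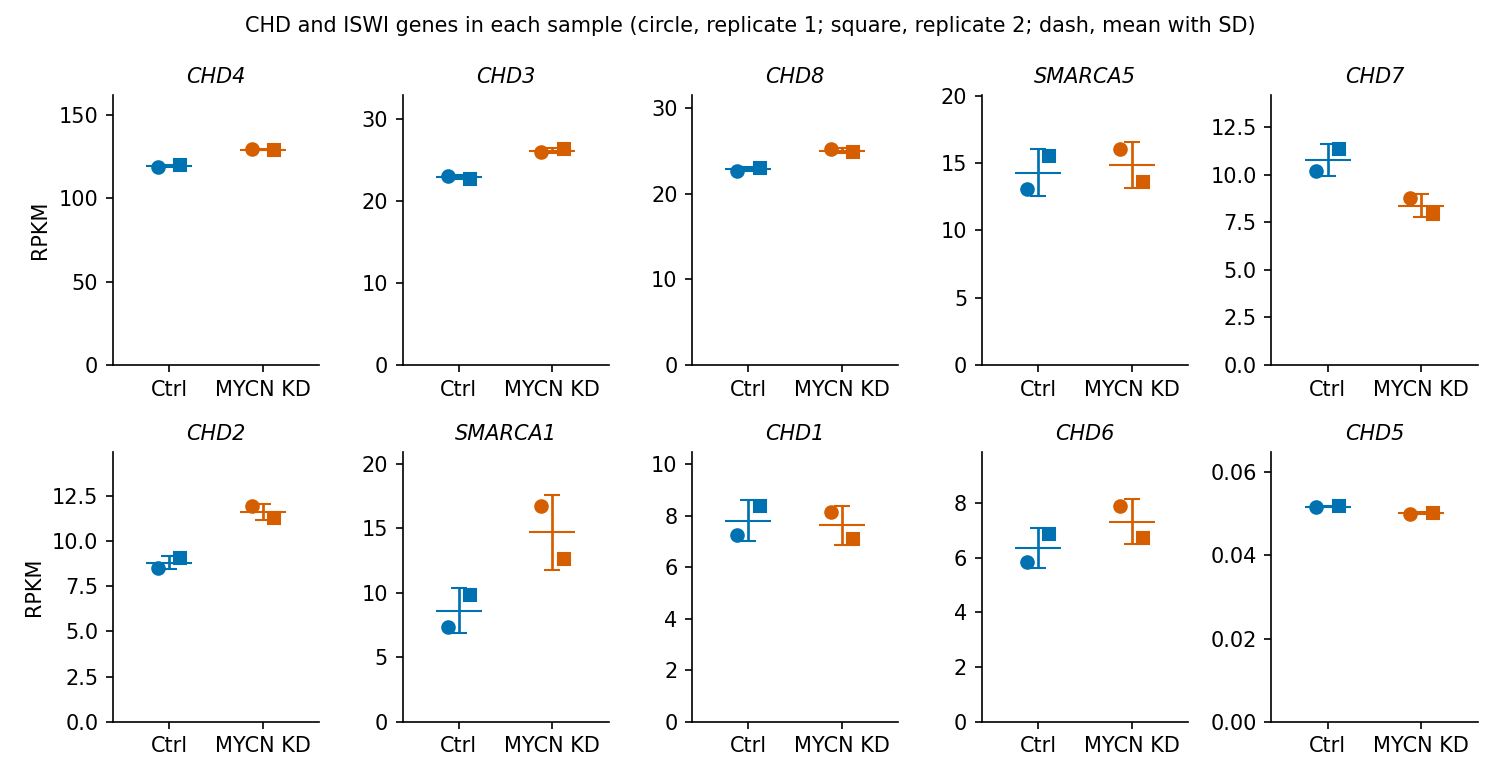
RPKM of each gene (linear axes from 0, one scale per gene) in Ctrl and MYCN KD, with circles for replicate 1, squares for replicate 2, and dashes with bars for the mean ± SD (n = 2). For CHD2, CHD3, CHD4, CHD8 and SMARCA1 the knockdown samples both lie above the Ctrl samples, for CHD7 they lie below, and the samples of CHD1, CHD6 and SMARCA5 overlap.

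The comparison of MYCN KD with Ctrl asked which nucleosome remodelers change when MYCN is lowered. CHD2 rose 1.32-fold by the ratio of means, CHD3 1.14-fold and CHD4 1.08-fold, and CHD7 fell to 0.777 times its Ctrl mean. SMARCA1 had a larger difference, 1.70-fold, but did not pass the test. Of the 10 genes, 9 passed the filter of a mean RPKM of at least 1, and CHD5 did not. Called genes were 3 of the 9 in the higher direction, against 25.3% of the 11411 tested genes, and 1 of the 9 in the lower direction, against 22.8%. In either direction 4 of the 9 were called, against 48.1%. These shares are near the background. Their median log2 fold change was 0.13, against 0.03 for all tested genes. In 5 of the 9 both MYCN KD values were above both Ctrl values, against 40.4% of tested genes, and in 1 both were below, against 35.8%. The tests were made with limma on log2(RPKM + 1), where the added 1 makes changes at low RPKM look smaller than they are. Without Ctrl replicate 1 or without MYCN KD replicate 1, SMARCA1 was called higher and CHD7 lower and no other gene was called. Without Ctrl replicate 2 or without MYCN KD replicate 2, SMARCA1 and CHD2 were called higher and 0 genes lower (limma, 0 also at an unadjusted p under 0.05). With a sample left out, limma drew the variance from genes of like expression and not from each gene's own spread.

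**Figure D2:**
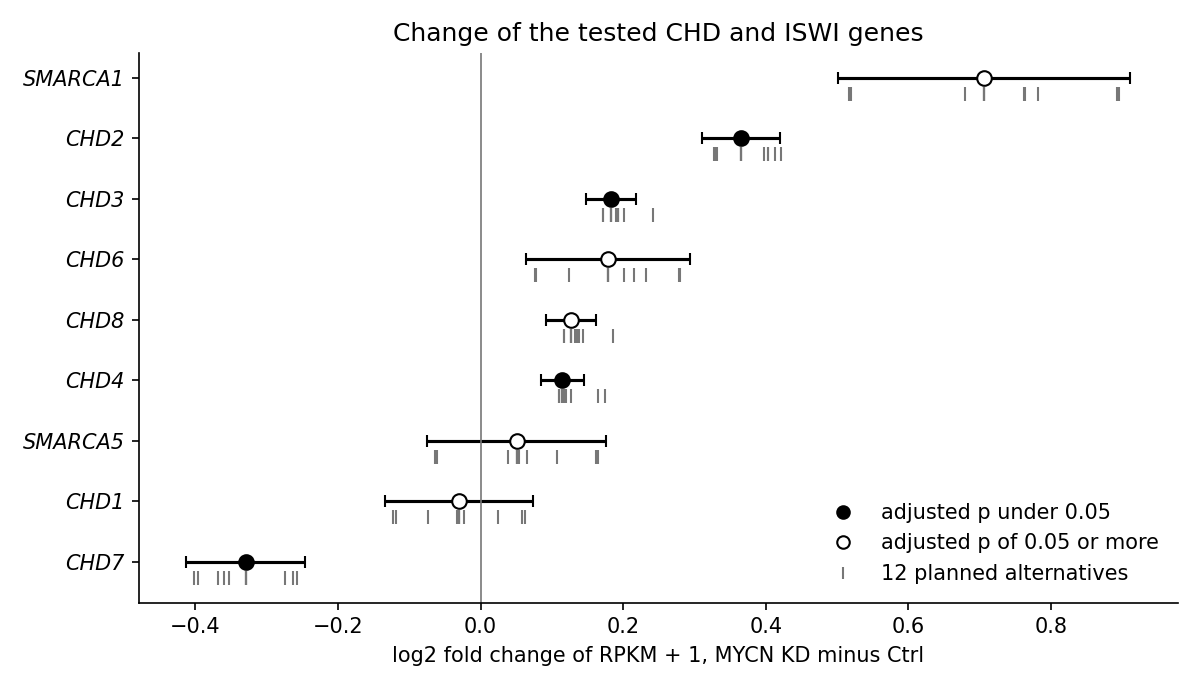
Log2 fold change of RPKM + 1, MYCN KD minus Ctrl, for the 9 tested genes, with bars for the standard error from limma and ticks for the values under 12 alternatives. SMARCA1 has the largest difference (0.71) with the widest bar, CHD2, CHD3 and CHD4 lie above 0 with narrow bars, and CHD7 lies at -0.33.

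Among the NuRD motors, both expressed genes rose slightly. CHD4, on chromosome 12 from 6679248 to 6723690 (GRCh37, as for the positions that follow), measured 119.0 and 119.8 RPKM in the Ctrl samples against 129.7 and 129.0 RPKM after MYCN knockdown. The gap between the groups was larger than the spread within either, with a log2 fold change of 0.11 (standard error 0.030) and an adjusted p of 0.0497 from limma. CHD3, on chromosome 17 from 7788114 to 7816078, measured 23.1 and 22.7 RPKM in the Ctrl samples against 25.9 and 26.3 RPKM after MYCN knockdown. Its log2 fold change was 0.18 ± 0.035 (standard error), at an adjusted p of 0.0261 from limma. The call of CHD4 lies at the threshold: its adjusted p was 0.0501 with a pseudocount of 0.1, 0.0569 without the filter on low values, 0.0539 when the filter was raised to a mean of 5 RPKM and 0.0699 without the trend in eBayes. Leaving out any 1 of the 4 samples ended the calls of both genes, with adjusted p from 0.418 to 0.479 for CHD4 and from 0.228 to 0.314 for CHD3.

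CHD5, a brain-enriched NuRD motor that lies in a part of the short arm of chromosome 1 (6161847 to 6240381) often lost in neuroblastoma, was represented by very few reads. It had 17 and 16 reads in Ctrl and 14 and 15 reads in MYCN KD. The exact 95% Poisson intervals of these counts, which cover counting error only, ran from 9.90 to 27.2 for the highest and from 7.65 to 23.5 for the lowest, so a difference was not detectable at this depth. Its level was 0.0499 to 0.0518 RPKM in the 4 samples. Its 7 listed neighbours on the chromosome arm were all expressed, from 1.2 to 87.5 RPKM over genes and samples. Of the 7, against backgrounds of 25.3% and 22.8%, 1 was called higher (CAMTA1, a calmodulin-binding transcription activator, log2 fold change 0.36) and 2 lower (RPL22, a ribosomal protein, at -0.33, and RNF207, a ring finger gene, at -0.23). The call of RPL22 was lost with samples rescaled to the same total. The call of CAMTA1 was lost without MYCN KD replicate 2 (adjusted p = 0.0531 from limma). That of RNF207 was lost without any 1 sample, with adjusted p from 0.1 to 0.208.

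Of the 12 other NuRD subunits tested, 5 fell, against a background of 22.8%, and 0 rose, against 25.3% (limma, 0 also at an unadjusted p under 0.05 and by limma voom). Their median log2 fold change was -0.18. RBBP4, a histone-binding WD40 protein, measured 15.5 and 16.5 RPKM in the Ctrl samples against 11.9 and 11.2 RPKM after MYCN knockdown (log2 fold change -0.44). MTA1, a scaffold that holds the deacetylases, measured 74.8 and 69.6 RPKM in the Ctrl samples against 52.7 and 56.6 RPKM after MYCN knockdown (-0.40). GATAD2A, the zinc finger protein that bridges to CHD3 or CHD4, measured 55.4 and 52.7 RPKM in the Ctrl samples against 41.2 and 43.3 RPKM after MYCN knockdown (-0.35). The calls of these 3 genes (adjusted p = 0.0118, 0.0178 and 0.0136 from limma) held in each of the 12 alternatives. The deacetylase HDAC1 (-0.31) and the methyl-CpG binder MBD2 (-0.33) also fell. The call of HDAC1 was lost without MYCN KD replicate 2 (adjusted p = 0.0519). That of MBD2 was lost without Ctrl replicate 2 (0.103) or MYCN KD replicate 2 (0.113). The other subunits did not pass the test. HDAC2, the deacetylase paired with HDAC1, was at -0.24 on the log2 scale with both MYCN KD samples below both Ctrl samples, and it was called lower without Ctrl replicate 1 (adjusted p = 0.0319) or MYCN KD replicate 1 (adjusted p = 0.042). MTA2 was at -0.02, MTA3 at 0.03, GATAD2B at -0.0045 and RBBP7 at -0.06, each with overlapping groups, and whether they differ from MTA1, GATAD2A and RBBP4 was not tested. From 3 subunits (without MYCN KD replicate 2) to 6 (without Ctrl replicate 1 or MYCN KD replicate 1) were called lower when a sample was left out.

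CHD4 also works with ADNP and the HP1 proteins in ChAHP, a complex that limits access to DNA. Of its 4 other subunits, 0 passed the test in either direction with limma, against 48.1% of all tested genes. The count was 0 also at an unadjusted p under 0.05 and by limma voom. ADNP measured 29.9 and 33.9 RPKM in the Ctrl samples against 36.2 and 32.0 RPKM after MYCN knockdown, with overlapping groups. CBX3, which encodes an HP1 protein, measured 68.3 and 77.9 RPKM in the Ctrl samples against 63.1 and 55.7 RPKM after MYCN knockdown (log2 fold change -0.30, adjusted p = 0.0906). It was the 1 subunit called lower without Ctrl replicate 1 or without MYCN KD replicate 1.

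Of CHD1 and CHD2, which are close in sequence, CHD2 rose. This gene, on chromosome 15 from 93429433 to 93571226, is mutated in childhood epilepsies. It measured 8.54 and 9.05 RPKM in the Ctrl samples against 11.9 and 11.3 RPKM after MYCN knockdown, from 2755 to 3326 reads a sample. Both MYCN KD samples were above both Ctrl samples, 1.32-fold by the ratio of means. The log2 fold change of 0.37 (standard error 0.055) had an adjusted p of 0.0155 from limma. The call was lost without Ctrl replicate 1 (0.33, adjusted p = 0.0515) or without MYCN KD replicate 1 (0.33, adjusted p = 0.0639). CHD1, on chromosome 5 from 98189689 to 98264711, measured 7.26 and 8.39 RPKM in the Ctrl samples against 8.17 and 7.11 RPKM after MYCN knockdown. The groups overlapped, and the log2 fold change of -0.03 (standard error 0.10) was smaller than its error (adjusted p = 0.828). Its sign turned when samples were rescaled to the same total (0.02) and when Ctrl replicate 2 (0.06) or MYCN KD replicate 2 (0.06) was left out.

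In the subfamily of CHD6, CHD7 and CHD8, CHD7 fell, while CHD6 and CHD8 were not called. CHD7, mutated in CHARGE syndrome, a disorder of neural crest derivatives, measured 10.2 and 11.4 RPKM in the Ctrl samples against 8.81 and 7.94 RPKM after MYCN knockdown. Both MYCN KD samples were below both Ctrl samples, at 0.777 times the Ctrl mean. The log2 fold change of -0.33 (standard error 0.083) had an adjusted p of 0.0463 from limma. The call was lost without Ctrl replicate 2 (-0.26, adjusted p = 0.140), without MYCN KD replicate 2 (-0.26, adjusted p = 0.149), under rescaling of the samples to equal totals (-0.27, adjusted p = 0.0990) and without the filter on low values (adjusted p = 0.0701).

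CHD8, on chromosome 14 from 21853353 to 21924285, measured 22.7 and 23.1 RPKM in the Ctrl samples against 25.3 and 24.9 RPKM after MYCN knockdown. The groups did not overlap, but the log2 fold change of 0.13 (standard error 0.035) missed the threshold at an adjusted p of 0.0571 from limma. It passed under rescaling of the samples to equal totals (0.19, adjusted p = 0.0376) and with limma voom on the recovered reads (0.14, adjusted p = 0.0444). CHD6, on chromosome 20 from 40030723 to 40247023, measured 5.82 and 6.86 RPKM in the Ctrl samples against 7.88 and 6.73 RPKM after MYCN knockdown, and MYCN KD replicate 2 fell within the Ctrl range. Its log2 fold change was 0.18 ± 0.115 (standard error), at an adjusted p of 0.271. It ranged from 0.08 without Ctrl replicate 1 or MYCN KD replicate 1 to 0.28 without Ctrl replicate 2 or MYCN KD replicate 2, and was called in none of these fits.

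Genes known to depend on CHD7 in neural crest or neuronal precursors were taken as a small list of transcription factors. SOX4 measured 48.2 and 53.2 RPKM in the Ctrl samples against 83.8 and 76.2 RPKM after MYCN knockdown, a difference of 0.65 on the log2 scale (adjusted p = 0.0107 from limma). SOX9 measured 2.26 and 2.41 RPKM in the Ctrl samples against 4.27 and 4.03 RPKM after MYCN knockdown, a difference of 0.63 on the log2 scale (adjusted p = 0.00569). Both calls held in each alternative in which the gene was tested. TWIST1 measured 45.8 and 49.5 RPKM in the Ctrl samples against 42.1 and 39.1 RPKM after MYCN knockdown and did not pass the threshold (-0.23, adjusted p = 0.0615). SOX11 was at most 0.251 RPKM and was below the filter. Of the 3 tested, 2 were called higher, against 25.3% of all tested genes, and 0 lower, against 22.8%. The counts by limma voom were the same, and 1 was lower at an unadjusted p under 0.05 from limma. Whether these genes moved with CHD7 was not tested.

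The ISWI motors included the gene with the largest log2 fold change of the 9 tested, SMARCA1, beside one whose groups overlapped. SMARCA1, on chromosome X from 128580478 to 128657477, encodes the motor linked to neuronal differentiation. It measured 7.38 and 9.86 RPKM in the Ctrl samples against 16.7 and 12.7 RPKM after MYCN knockdown, from 1035 to 1998 reads a sample. Both MYCN KD samples were above both Ctrl samples, 1.70-fold by the ratio of means, and MYCN KD replicate 1 was the highest of all. Its replicates were also the most spread of the 9 tested genes, and the log2 fold change of 0.71 (standard error 0.205) missed the threshold at an adjusted p of 0.0623 from limma. It passed with quantile normalization (0.68, adjusted p = 0.0425) and with each sample left out in turn, from 0.52 (adjusted p = 0.00220) without MYCN KD replicate 1 to 0.90 (adjusted p = 3.08e-08) without MYCN KD replicate 2. These last fits did not use the spread of SMARCA1 itself.

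SMARCA5, on chromosome 4 from 144434855 to 144478639, the ISWI motor of dividing cells, measured 13.1 and 15.5 RPKM in the Ctrl samples against 16.0 and 13.6 RPKM after MYCN knockdown. The groups overlapped, and the log2 fold change was 0.05 ± 0.13 (standard error), at an adjusted p of 0.762. Its sign turned without Ctrl replicate 1 (-0.06) or MYCN KD replicate 1 (-0.06). SMARCA5-AS1, an antisense gene that overlaps SMARCA5, had 5 to 10 reads a sample. The strandedness of the libraries is not given in the sources used here, so reads of such overlapping partners cannot be told apart, but these reads are few against the 3336 to 3926 of SMARCA5. CHD3 overlaps NAA38, an acetyltransferase subunit with 64.6 to 75.9 RPKM in the 4 samples and no called change (log2 fold change -0.07, adjusted p = 0.555), and the share of reads at that overlap is uncertain.

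Of 11 partner subunits of the ISWI motors 9 were tested, of which 2 rose, against a background of 25.3%, and 4 fell, against 22.8%. The lower count was 2 with samples rescaled to the same total, and the higher count was 1 without the filter on low values or with the filter at a mean of 5 RPKM. The histone-fold subunits of the CHRAC complex fell most. POLE3, also a subunit of DNA polymerase epsilon, measured 134.2 and 136.1 RPKM in the Ctrl samples against 84.6 and 83.7 RPKM after MYCN knockdown (log2 fold change -0.68, adjusted p = 0.00359 from limma). CHRAC1, its dimer partner, measured 23.3 and 22.4 RPKM in the Ctrl samples against 12.8 and 13.4 RPKM after MYCN knockdown (-0.76, adjusted p = 0.00414). Both calls held in each of the 12 alternatives. BAZ1A, the large subunit of ACF and CHRAC, measured 15.6 and 17.5 RPKM in the Ctrl samples against 13.2 and 11.8 RPKM after MYCN knockdown (-0.38, adjusted p = 0.0414). Its call was lost without Ctrl replicate 2 (0.0676) or MYCN KD replicate 2 (0.0736), as well as without the filter on low values and with samples rescaled. The remaining one, HMGXB4, an HMG box protein named here after its values were seen, fell by 0.18 on the log2 scale, a call lost with samples rescaled and without any 1 sample (adjusted p from 0.296 to 0.335).

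The partners that rose were BAZ2B and BPTF. BAZ2B measured 1.16 and 1.31 RPKM in the Ctrl samples against 2.40 and 2.12 RPKM after MYCN knockdown (log2 fold change 0.55, adjusted p = 0.0115 from limma), a call that held in each of the 11 alternatives in which it was tested. BPTF, the large subunit of NURF, in which SMARCA1 is the motor, measured 7.82 and 8.69 RPKM in the Ctrl samples against 11.1 and 9.99 RPKM after MYCN knockdown (0.32, adjusted p = 0.0485). Its call was lost without Ctrl replicate 1 (0.157) or MYCN KD replicate 1 (0.178), as well as without the filter on low values and with samples rescaled. Partners of SMARCA5 in other complexes did not pass the test: BAZ1B, found at replication forks, was at 0.05, RSF1 at 0.14 and BAZ2A, which acts at ribosomal RNA genes, at 0.11 (adjusted p = 0.664, 0.217 and 0.0700). CECR2 was at most 0.0130 RPKM and C17orf49 was listed at 0, so neither was tested. Without Ctrl replicate 2 or MYCN KD replicate 2, 2 partners were called lower, and without Ctrl replicate 1 or MYCN KD replicate 1, 1 was called higher.

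The balance between paralogs was taken as the share of each gene in the RPKM summed over its group. SMARCA1 made up 36.1% and 38.9% of the ISWI motors in the Ctrl samples and 51.1% and 48.2% after knockdown, a difference of 12.1 percentage points between the means. CHD2 made up 54.0% and 51.9% of CHD1 and CHD2 in the Ctrl samples and 59.4% and 61.4% after knockdown. Of the RPKM summed over CHD6, CHD7 and CHD8, CHD7 made up 26.3% and 27.5% in the Ctrl samples and 21.0% and 20.1% after knockdown. Among the NuRD motors, CHD4 held 83.9% in Ctrl and 83.2% in MYCN KD on average, and CHD3 nearly all of the rest. Shares within a group add up to 100%, so they are not independent of each other, and in a pair such as SMARCA1 and SMARCA5 one mirrors the other. For each share both MYCN KD samples lay on one side of both Ctrl samples, as did the RPKM of 40.4% (higher) and 35.8% (lower) of all tested genes. Each two-sided exact permutation test gave p = 0.3333, the smallest that 2 samples against 2 allow, so that none can pass a threshold of 0.05.

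**Figure D3:**
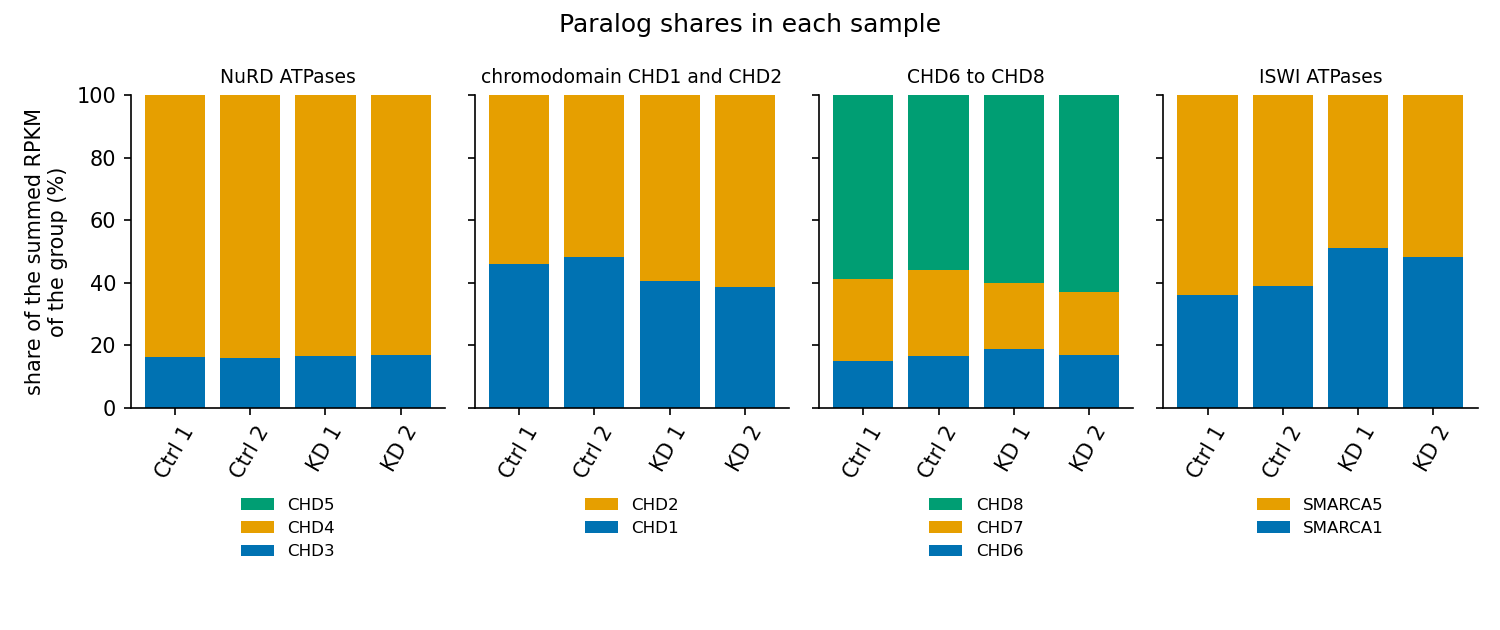
Share of each gene in the summed RPKM of its paralog group (%), as stacked bars for each of the 4 samples (KD, MYCN KD). SMARCA1 takes 36.1% and 38.9% of the ISWI bar in Ctrl against 51.1% and 48.2% after knockdown, and the NuRD bars hold mostly CHD4, with CHD5 too small to be seen.

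CHD9 and CHD1L, the relatives of the 10 genes outside the selection, both passed the test, in opposite directions. CHD9, the remaining member of the subfamily of CHD6, CHD7 and CHD8, measured 3.45 and 3.90 RPKM in the Ctrl samples against 7.55 and 6.71 RPKM after MYCN knockdown (log2 fold change 0.80, standard error 0.086, adjusted p = 0.00842 from limma). CHD1L, a remodeler that acts at sites of DNA damage and lacks chromodomains, measured 17.9 and 20.1 RPKM in the Ctrl samples against 13.8 and 12.4 RPKM after MYCN knockdown (-0.50, standard error 0.087, adjusted p = 0.0210). Both calls held in each of the 12 alternatives.

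Remodelers of other families served for comparison, with INO80, SRCAP and EP400 counted in both lists. Of 18 tested subunits of the INO80 and SRCAP/p400 complexes, 7 fell, against a background of 22.8%, and 0 rose, against 25.3% (limma, 0 also at an unadjusted p under 0.05 and by limma voom), with a median log2 fold change of -0.16. RUVBL1, an AAA+ ATPase shared by these complexes, measured 210.4 and 201.1 RPKM in the Ctrl samples against 118.2 and 123.7 RPKM after MYCN knockdown (-0.76, adjusted p = 0.00414). Its partner RUVBL2 fell by 0.55 on the log2 scale (adjusted p = 0.0272). UCHL5, a deubiquitinase, fell by 0.59 (adjusted p = 0.0154), the histone reader YEATS4 by 0.45 (adjusted p = 0.0346) and the motor INO80 by 0.37 (adjusted p = 0.0113). The calls of RUVBL1, RUVBL2 and UCHL5 held in each of the 12 alternatives. That of YEATS4 was lost without the filter on low values and with samples rescaled, and that of INO80 without MYCN KD replicate 2 (adjusted p = 0.05). Without MYCN KD replicate 2, 4 subunits were called lower. Of 16 other motors of the SNF2 family, 2 rose and 4 fell, against backgrounds of 25.3% and 22.8%, with a median of -0.07. ERCC6 measured 0.664 and 0.855 RPKM in the Ctrl samples against 1.55 and 1.22 RPKM after MYCN knockdown (0.44, adjusted p = 0.0402 from limma). Its call was lost without the filter on low values. TTF2 fell by 0.41 on the log2 scale (adjusted p = 0.0370). That call was lost without the filter, with samples rescaled, and without Ctrl replicate 2 or MYCN KD replicate 2. RAD54L, which acts in homologous recombination, measured 9.59 and 9.70 RPKM in the Ctrl samples against 6.66 and 6.60 RPKM after MYCN knockdown (-0.48, adjusted p = 0.00553), and its call held in each alternative. SMARCAL1, which remodels stalled replication forks, rose by 0.33 on the log2 scale (adjusted p = 0.00836), a call lost without MYCN KD replicate 1 (0.0502). Without Ctrl replicate 2, 2 of these motors were called lower, and without MYCN KD replicate 2, 1 was. Without MYCN KD replicate 1, without the filter on low values or with the filter at a mean of 5 RPKM, 1 was called higher. Whether the 10 genes differ from these lists was not tested.

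**Figure D4:**
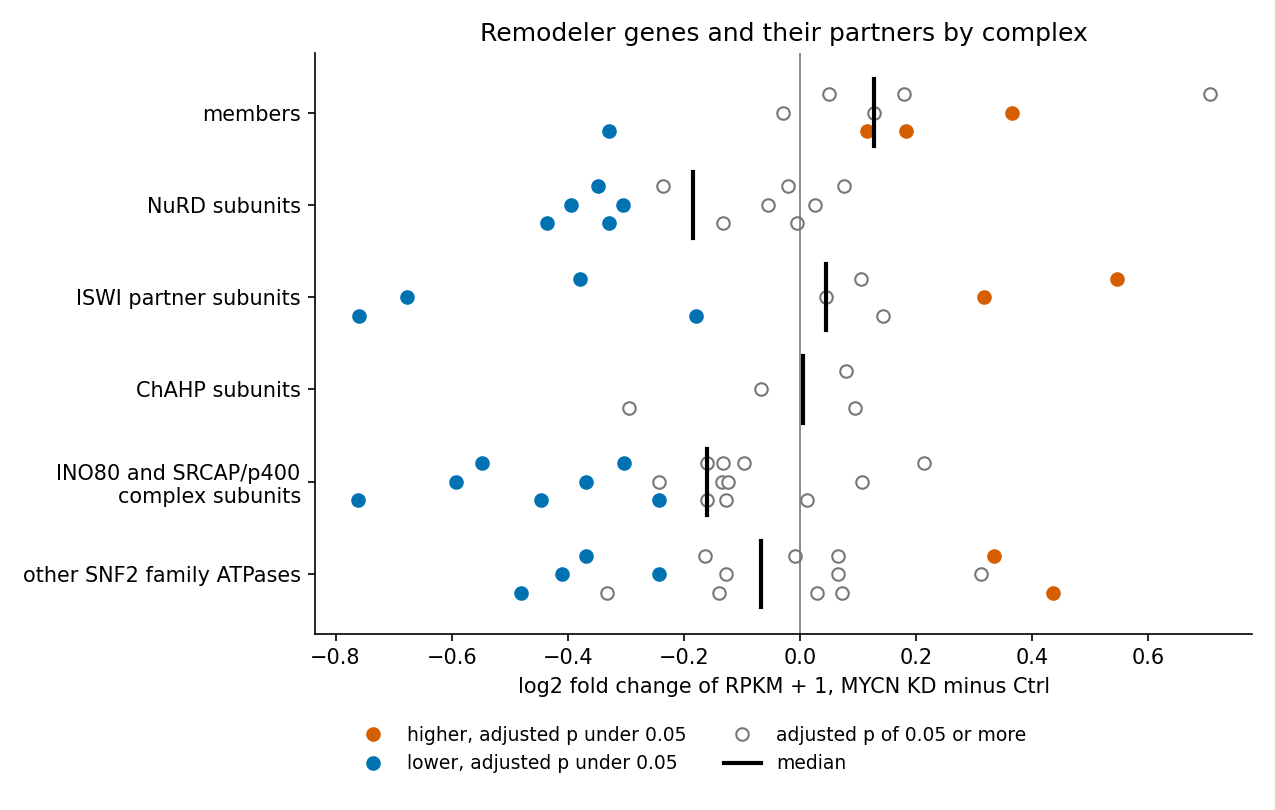
Log2 fold change of RPKM + 1, MYCN KD minus Ctrl, for each tested gene (points) by complex or family, with filled points for an adjusted p under 0.05 from limma and a bar for the median of each row. The row of members has a median of 0.13 with 1 gene called lower, and the NuRD and the INO80 and SRCAP/p400 rows have calls in the lower direction alone.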

How the data were processed

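RNA-seq of 2 Ctrl and 2 MYCN KD samples was used, with groups taken from the sample titles. After mapping to hg19 with HISAT2 2.1.0 (version from the submitters' processing notes), the authors counted reads on RefSeq genes with featureCounts, applied DESeq2 and RUVSeq, and deposited RPKM values from the normalized counts. These values carry the effect of that adjustment, whose number of factors is not given in the sources used here. A filter kept the 11411 genes whose RPKM averaged 1 or more over the 4 samples. Their log2(RPKM + 1) entered lmFit and eBayes (trend on) of limma 3.58.1, run in R 4.3.3, and p-values were adjusted over all of them by the Benjamini-Hochberg method, with a threshold of 0.05. Reads were recovered because each RPKM value is a whole multiple of the value of 1 read: small RNA genes of known length set the totals (from 92.92% to 94.06% of them within 0.01 of a whole number), and each gene was given the smallest length of up to 120000 bases, or a multiple of it nearer the annotated length, that made its values in all 4 samples whole within 0.002 reads (plus a share of 2e-08). Such a length was found for all 19908 genes above 0. Recovered reads are therefore counts after RUVSeq, not the reads as sequenced. The fit was also run on simulated reads, drawn independently for each sample. Such reads lack the mirrored deviations of these samples, so that run cannot show how well the p-values hold here. Positions came from GENCODE release 44 lifted to GRCh37. The members, gene lists and tests were chosen with earlier results of these data known. Every member was named, with MYCN and, from each list, called genes with large changes and uncalled ones of the same complex. Alternatives were another pseudocount, filters, scalings, eBayes without a trend, a replicate block, limma voom and each sample left out.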

Additional observations from a re-analysis of the deposited data

How the results depend on the processing

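Replicate numbers were shared by the sample titles only, and same-numbered samples did not deviate together (correlation -0.9845). With the replicate block, 1 of the 9 tested CHD and ISWI genes was called higher (SMARCA1, adjusted p = 0.000196 from limma). In that fit 0 were called lower (0 also at an unadjusted p under 0.05), over 2077 higher and 1851 lower genes in all. There too limma drew the variance from genes of like expression and not from each gene's own spread. Besides CHD2, CHD3, CHD4 and CHD7, the replicate block ended the calls of HDAC1, MBD2, RPL22, CAMTA1, RNF207, BAZ1A, BPTF, HMGXB4, INO80 and SMARCAL1. It left 3 NuRD subunits and 4 INO80 and SRCAP/p400 subunits called lower. The crossed replicate block, added once the data had been seen, paired each replicate 1 with the replicate 2 of the other group. It called 7 of the 9 higher and 2 lower, over 5910 and 5262 genes. That block takes up the mirrored deviations and left a median residual SD of 0.00197, against 0.0765 in the main fit. Its calls therefore say little about single genes. Without the filter on low values CHD5 was tested too, and 0 of the 10 were called lower (1 at an unadjusted p under 0.05 from limma). With samples rescaled to the same total, 0 of the 9 were called lower (0 also at an unadjusted p under 0.05 from limma). Leaving out each sample in turn gave 1 to 2 called higher and 0 to 1 called lower. At a filter of RPKM 5 on the mean, 1868 genes were higher, against 2890, with fewer genes tested. Among the log2 fold changes of the 9, reversals occurred at CHD1 (0.0239 with samples rescaled to the same total, and -0.123 to 0.0625 over the fits that lack a sample) and at SMARCA5 (-0.0644 to 0.165 over the same fits). The other 7 kept their direction in all 13 alternatives, and MYCN also stayed past the threshold in each. Of 60 recomputed paralog share differences, 57 moved by less than 1 SD, which for most of them was fixed in advance. Rescaling a sample cancels in a share, and leaving out 1 of 2 samples cannot move a difference by 1 SD. Only quantile normalization could. It moved CHD3 (from 0.71 to 0.326 percentage points), CHD4 (from -0.706 to -0.313) and CHD5 (from -0.00413 to -0.0128) by more than that. The causes were not tested, apart from the number of genes tested. CHD5, with 14 to 17 reads, is limited by depth.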
